A study of Homo sapiens with 6 samples.

Results

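The genes described here are the well-expressed members of the ZNF family, which is named for zinc finger proteins. A gene belonged to the set when its symbol was ZNF followed by digits, with at most 1 final letter, and when its deposited value averaged 300 or more over 6 libraries. That rule found 131 genes among 454 ZNF genes and 16670 genes in all, and the other 323 ZNF genes averaged less. Sequencing covered A549, a human lung cancer cell line, in 2 groups of 3 libraries that the labels call biological replicates. The salinomycin group was kept in alisertib for 1 week to become senescent and then received 2.5 µM salinomycin for 48 h. The untreated group had the same alisertib treatment and no salinomycin. Alisertib inhibits the mitotic kinase Aurora A, and salinomycin is an ionophore that carries alkali metal ions across membranes. Cells that never met alisertib were not analysed here, so every value below comes from an alisertib-treated culture of a single line.

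Most ZNF genes encode proteins with arrays of C2H2 zinc fingers, small folds held by a zinc ion, each of which can contact a few bases of DNA. Many also carry a KRAB box, which recruits the corepressor TRIM28 (also called KAP1) and through it the histone methyltransferase SETDB1 and heterochromatin proteins of the HP1 family. KRAB zinc finger proteins are best known for silencing transposable elements, and their genes lie in clusters, many of them on chromosome 19. Some ZNF-named proteins instead bind RNA, ribosomes or the spindle.

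Salinomycin cells held more transcript of most of the 131 genes. With salinomycin 83 of them were higher (63.4%), against 41.6% of all 13088 genes tested, and 32 were lower (24.4%), against 40.2% of all genes. The other 16 did not pass the test, which was limma on log2 values with a Benjamini-Hochberg adjusted p under 0.05. Their median log2 change was 0.48, with quartiles of -0.17 and 1.05, beside a median of 0.02 over all genes. Rises of at least 2-fold were found in 34 genes (26.0%; 16.8% of all genes), and falls of at least 2-fold in 6 genes (4.58%; 18.5% of all genes). Of those 34, 18 had averaged 300 or more with salinomycin only. Among the 92 genes at 300 or more in both groups, 16 rose by at least 2-fold (17.4%), near the share of all genes, and 3 fell by as much (3.26%). The 3 salinomycin libraries did not overlap the 3 untreated libraries for 114 of the genes, and the same was true of 83.0% of all genes. Scaling by library size alone, which moved the median of all genes by 0.19 on the log2 scale, gave 95 higher and 25 lower ZNF genes, and upper-quartile scaling gave 78 and 35.

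**Figure D1:**
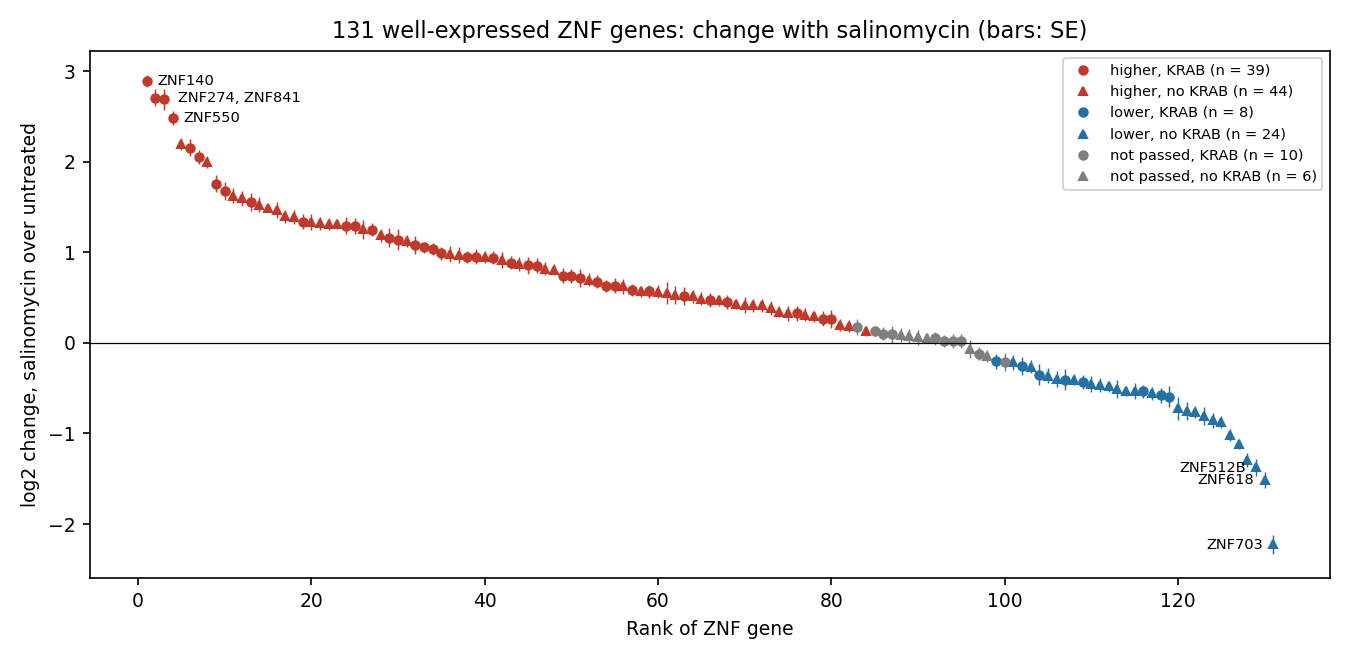
Log2 change (salinomycin over untreated, vertical axis) of the 131 ZNF genes in rank order (horizontal axis), with the standard error as bars. Circles have a KRAB match and triangles have none. The changes run from 2.90 for ZNF140 to -2.22 for ZNF703, with 83 genes higher, 32 lower and 16 that did not pass.

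The sequences upstream of these genes show what the family shares before any value is compared. Promoters were taken from RefSeq on GRCh38.p14, as the 250 bases before and 30 bases after the annotated start, and 115 of the 131 genes had an entry. The motif CCGGAAG, which holds the GGAA core bound by ETS transcription factors, was searched on both strands. It occurred in 47 of the 115 promoters (40.9%) and in 15.7% of 13209 promoters of all genes with an entry. It was as frequent in the promoters of ZNF genes that averaged under 300 (94 of 232, 40.5%). It was found in 32 of 74 promoters of genes that were higher with salinomycin (43.2%) and in 11 of 27 of those that were lower (40.7%). The CCAAT box CCAAT was in 36.5% of the ZNF promoters and 35.8% of all, but in 49.1% of those of ZNF genes that averaged under 300. The GC box GGGCGG was in 65.2% of the ZNF promoters, 63.4% of all and 58.6% of those of ZNF genes under 300. The cyclic AMP response element TGACGTCA was in 6 ZNF promoters (5.22%; 2.85% of all). The ATF4-type letters TGATGNAAN and the ER stress element were in 0 of the 115, against 1.96% and 0.129% of all promoters. Median GC content was 64.3% in both sets. These motifs were chosen after their counts were seen, and a match is a run of letters, not a measured binding site.

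The promoters of the 4 genes with the largest rises are shown on the strand of the gene from 5′ to 3′, with CCGGAAG or its complement CTTCCGG in capitals. They lie at chr12:133080673-133080952, plus strand (ZNF140), chr19:58182811-58183090, plus strand (ZNF274), chr19:52095736-52096015, minus strand (ZNF841) and chr19:57559834-57560113, minus strand (ZNF550).
ZNF140: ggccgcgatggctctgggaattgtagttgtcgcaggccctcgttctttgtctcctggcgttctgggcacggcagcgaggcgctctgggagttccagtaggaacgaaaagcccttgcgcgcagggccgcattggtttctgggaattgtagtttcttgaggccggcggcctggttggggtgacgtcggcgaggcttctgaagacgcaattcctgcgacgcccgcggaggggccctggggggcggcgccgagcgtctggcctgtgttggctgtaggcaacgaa
ZNF274: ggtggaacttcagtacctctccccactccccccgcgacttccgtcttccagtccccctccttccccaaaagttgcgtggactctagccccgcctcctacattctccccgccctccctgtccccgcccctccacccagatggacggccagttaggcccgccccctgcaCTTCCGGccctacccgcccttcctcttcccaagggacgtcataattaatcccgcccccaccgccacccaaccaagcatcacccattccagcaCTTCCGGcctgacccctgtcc
ZNF841: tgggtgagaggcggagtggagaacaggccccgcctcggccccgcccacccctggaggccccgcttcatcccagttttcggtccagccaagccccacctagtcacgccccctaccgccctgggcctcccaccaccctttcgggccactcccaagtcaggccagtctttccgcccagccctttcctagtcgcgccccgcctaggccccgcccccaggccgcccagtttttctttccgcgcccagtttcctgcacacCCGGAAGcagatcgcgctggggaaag
ZNF550: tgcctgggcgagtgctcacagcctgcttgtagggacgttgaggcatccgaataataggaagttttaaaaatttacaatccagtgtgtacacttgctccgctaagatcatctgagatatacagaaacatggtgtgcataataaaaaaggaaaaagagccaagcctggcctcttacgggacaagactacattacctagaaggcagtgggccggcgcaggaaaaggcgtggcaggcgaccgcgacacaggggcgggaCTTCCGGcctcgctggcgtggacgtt
For comparison, the promoters of a pair of genes that fell lie at chr19:36214856-36215135, plus strand (ZNF146) and chr1:200410007-200410286, minus strand (ZNF281).
ZNF146: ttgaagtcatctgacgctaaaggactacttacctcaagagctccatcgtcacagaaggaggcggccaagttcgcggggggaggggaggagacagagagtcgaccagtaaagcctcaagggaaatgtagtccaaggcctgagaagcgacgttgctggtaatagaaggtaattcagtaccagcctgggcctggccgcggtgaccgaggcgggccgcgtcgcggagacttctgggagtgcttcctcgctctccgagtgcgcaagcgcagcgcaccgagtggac
ZNF281: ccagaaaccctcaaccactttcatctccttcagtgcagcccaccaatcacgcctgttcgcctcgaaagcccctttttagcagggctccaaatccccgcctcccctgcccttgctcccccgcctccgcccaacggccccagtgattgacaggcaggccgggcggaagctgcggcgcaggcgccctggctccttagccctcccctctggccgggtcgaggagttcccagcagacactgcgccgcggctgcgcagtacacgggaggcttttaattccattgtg
The motif was present 2 times in ZNF274 and 1 time each in ZNF841 and ZNF550. It was absent from these windows in ZNF140, ZNF146 and ZNF281, so the largest rise and both falls shown lack these letters. The falls shown are not the largest ones. Over all lower genes with a promoter entry the motif was in 40.7%, so these windows do not represent them.

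The 10 largest rises and the 10 largest falls were taken only from genes whose groups did not overlap, so their separation was fixed by the choice. Of the 10 largest rises, 8 were of genes with a KRAB match. ZNF140, ZNF274, ZNF841, ZNF550, ZNF805 and ZNF791 averaged under 300 deposited units untreated, so they entered the set through salinomycin alone. Their direction follows from that. ZNF140, a KRAB zinc finger repressor gene (chromosome 12, 133079838 to 133107544, GRCh38), had 1288, 1254 and 1215 normalised units in the salinomycin libraries, against 170.8, 168.1 and 163.3 in the untreated libraries. Every salinomycin value was far above every untreated one, and the change was 2.90 ± 0.066 on the log2 scale (SE; limma adjusted p = 5.2e-12), or 7.48-fold. ZNF274 encodes a KRAB and SCAN protein that brings SETDB1 to the 3′ ends of other ZNF genes (chromosome 19, 58183029 to 58213562). It had 1309, 1286 and 1302 units with salinomycin, against 183.8, 230.9 and 182.5 units untreated. The groups did not overlap, and the change was 2.71 ± 0.09 (adjusted p = 8.55e-11).

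ZNF841 (chromosome 19, 52064466 to 52095765) had 590.7, 508.2 and 456.2 units with salinomycin, against 74.59, 87.24 and 75.76 untreated. Its change was 2.69 ± 0.114, and its untreated level of 18.5 units per kilobase of exon was the lowest of these 10 genes. ZNF550 (chromosome 19, 57535257 to 57559863) had 870.2, 845.7 and 766.9 units with salinomycin, against 142.7, 146.8 and 150.5 untreated (log2 change 2.49 ± 0.078). ZNF805, on the same chromosome, had 761.0, 715.4 and 606.4 units with salinomycin, against 143.8, 154.3 and 165.4 untreated (2.16 ± 0.098). Each of these genes was high in all salinomycin libraries and low in all untreated ones. Of the exon sequence of ZNF805, 7.4% occurs as runs of 50 bases in another gene, and 4.7% of that of ZNF841, so a small part of their reads may be shared.

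ZNF331, a KRAB gene known to be imprinted, had 1819, 1818 and 1717 units with salinomycin, against 379.4, 472.4 and 443.9 untreated (log2 change 2.05 ± 0.078). ZNF791 had 824.0, 837.2 and 751.0 units with salinomycin, against 211.9, 285.1 and 260.4 untreated (1.68 ± 0.102). ZNF587 had 2776, 2576 and 2153 units with salinomycin, against 675.6, 805.4 and 727.7 untreated (1.76 ± 0.091). As the choice required, these KRAB genes showed no overlap between groups. The value of ZNF587 is less certain than the others, since 18.6% of its exon sequence is shared with other genes and 33.3% lies opposite a gene on the other strand, and it is not known whether reads were counted by strand. ZNF526, with 13 fingers and no KRAB match, had 2191, 2384 and 2345 units with salinomycin, against 607.5, 528.8 and 598.6 untreated (2.00 ± 0.066).

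**Figure D2:**
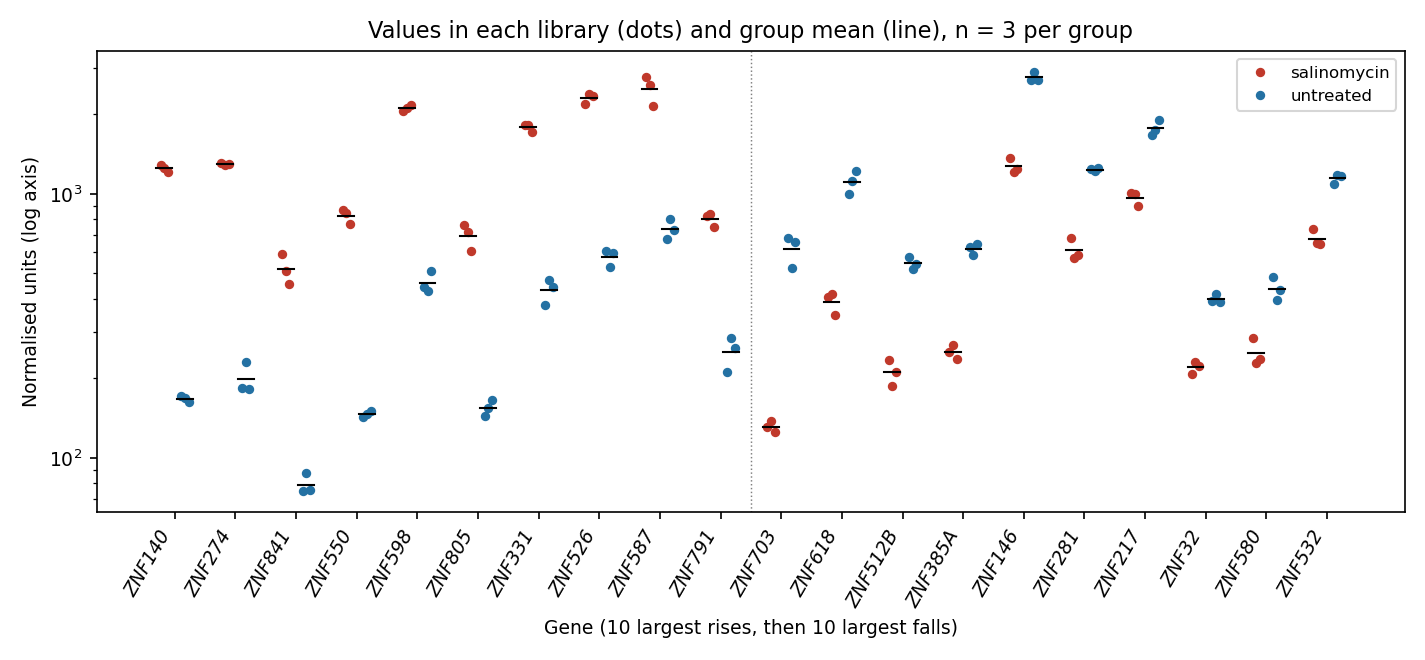
Normalised units in each library (dots, log axis) and group means (lines) for the 10 largest rises and the 10 largest falls, salinomycin left of untreated for each gene, n = 3 per group. The dots of the groups are separate in all 20 genes because only genes without overlap were chosen. ZNF140 averaged 1252 units with salinomycin against 167.4 untreated, and ZNF703 averaged 131.1 against 619.5.

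The 10 largest falls held no gene with a KRAB match. Among ZNF genes with a match that averaged under 300, 14 fell by at least 2-fold. Rises and falls cannot be compared on this point, since many of these genes entered the set through 1 group alone. ZNF703, ZNF512B, ZNF385A, ZNF32 and ZNF580 averaged under 300 deposited units with salinomycin, so they entered the set through the untreated group alone. ZNF703, a transcriptional corepressor gene known as an oncogene in breast cancer (chromosome 8, 37695751 to 37700021), had 130.5, 137.8 and 124.9 units with salinomycin, against 677.8, 522.4 and 658.4 untreated. All salinomycin values were below all untreated ones, and the change was -2.22 ± 0.105 (limma adjusted p = 1.72e-09). ZNF618, whose product binds the ubiquitin ligase UHRF2, had 406.4, 416.3 and 347.3 units with salinomycin, against 1002, 1121 and 1216 untreated (-1.51 ± 0.089). ZNF512B had 234.2, 187.5 and 211.2 units with salinomycin, against 577.3, 520.3 and 542.1 untreated (-1.37 ± 0.093). ZNF385A, whose product is a cofactor of p53 that also binds RNA, had 252.7, 267.2 and 236.6 units with salinomycin, against 629.2, 585.2 and 643.4 untreated (-1.29 ± 0.077). The groups were separate for each of these genes, as the choice required.

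Genes for well-studied transcription factors followed. ZNF146, whose protein is almost only zinc fingers, had 1366, 1214 and 1242 units with salinomycin, against 2689, 2902 and 2690 untreated (-1.12 ± 0.059). ZNF281, a transcription factor gene active in stem cells, had 680.5, 571.0 and 585.8 units with salinomycin, against 1243, 1216 and 1251 untreated (-1.02 ± 0.071). ZNF217, an amplified oncogene whose protein works with the CoREST and LSD1 corepressors, had 1008, 995.7 and 896.5 units with salinomycin, against 1670, 1748 and 1897 untreated (-0.87 ± 0.066). All 3 were lower in every salinomycin library. The other falls of this group were -0.86 for ZNF32, -0.81 for ZNF580 and -0.76 for ZNF532. Of the exon sequence of ZNF32, 38.6% lies opposite another gene, and 15.1% of that of ZNF580 overlaps a gene on the same strand.

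**Figure D3:**
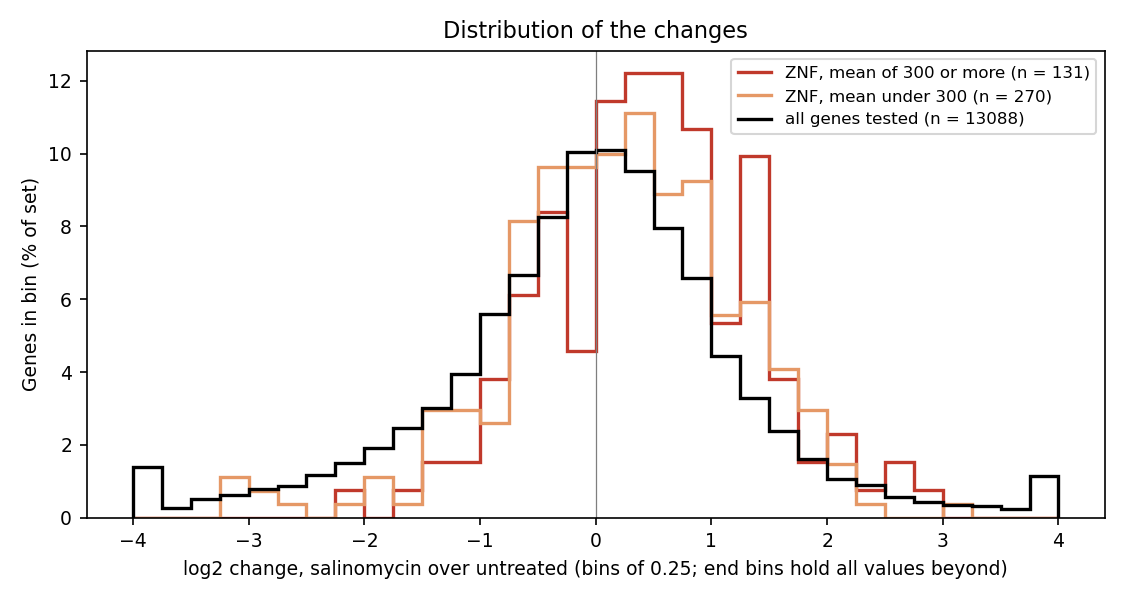
Share of genes (vertical axis, percent of each set) by log2 change (salinomycin over untreated, bins of 0.25) for the 131 ZNF genes, the 270 tested ZNF genes with a mean under 300 and all 13088 genes tested. The curve of the 131 genes lies to the right, with a median of 0.48 against 0.23 and 0.02.

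The balance towards rises was smaller in ZNF genes of lower level and in relatives with other names. Of 270 tested ZNF genes with a mean under 300, 120 were higher (44.4%) and 70 lower (25.9%), with a median log2 change of 0.23. Other genes averaging 300 or more, 7824 in all, were 45.9% higher and 39.3% lower, with a median of 0.07. The ZBTB genes, which join zinc fingers to a BTB domain, had 21 of 38 higher (55.3%) and 9 lower (23.7%; median 0.24). These shares were close to the 58.7% and 26.1% of the 92 ZNF genes at 300 or more in both groups. The ZFP genes had 6 of 15 higher and 5 lower, and the ZSCAN genes, which join fingers to a SCAN domain, had 3 of 15 higher and 6 lower (median -0.18). Differences between these sets were not tested.

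The rule acted on the mean over both groups, so a gene could enter through 1 group alone. Of the 92 genes with both group means at 300 or more, 54 were higher (58.7%) and 24 lower (26.1%). Over all genes tested 41.6% were higher and 40.2% lower. The median log2 change of the 92 genes was 0.41. Another 31 reached 300 only with salinomycin and 8 only without it, and their direction follows from that. Just inside the limit lay ZNF780A with a mean of 300.2, ZNF266 with 303.3 and ZNF518B with 303.3 deposited units, and just outside lay ZNF510 with 299.7, ZNF704 with 299.2 and ZNF839 with 296.7. Of these, ZNF704 had a log2 change of -2.10 and the other 5 had log2 changes between -0.35 and 0.27. Genes averaging 300 to 450 were split evenly, with 23 of 51 higher and 21 lower. Those from 450 to 800 had 36 of 47 higher and 4 lower, and those of 800 or more had 24 of 33 higher and 7 lower.

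By the mean over both groups, the most abundant ZNF transcripts per length were those of ZNF664, ZNF622 and ZNF146. Per kilobase of exon, ZNF664 averaged 943.5 units with salinomycin and 336.1 untreated. On the same scale ZNF622 averaged 818.9 units with salinomycin and 328.0 untreated, and ZNF146 averaged 307.3 with salinomycin and 665.8 untreated. ZNF146 was the highest of the 3 in untreated cells and the lowest in salinomycin cells, where ZNF526 (540.1 units per kilobase) and others lay above it. ZNF664 had 6213, 5879 and 5853 units with salinomycin, against 2153, 2102 and 2137 untreated, with no overlap and a log2 change of 1.49 ± 0.047.

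The genes were then grouped by what their proteins carry. A KRAB match was found in 57 of the 131 predicted proteins, of which 39 genes were higher and 8 lower, with a median log2 change of 0.68. The 8 became 5 when salinomycin replicate 2 or replicate 3 was left out and 4 with scaling by library size alone. In the 74 genes without a match, 44 were higher (59.5%) and 24 lower (32.4%), with a median of 0.37. Over all genes tested 41.6% were higher and 40.2% lower. Changes of at least 2-fold were 18 rises and 0 falls in the KRAB genes, and 16 rises and 6 falls in the others. Most of those 18 KRAB genes averaged under 300 deposited units untreated, so they entered the set through salinomycin alone. Most of the 16 others averaged 300 or more in both groups. These counts therefore cannot be compared between genes with and without a match. The pattern search can miss divergent KRAB boxes, so the genes without a match may include some. Among ZNF genes that averaged under 300, 82 of 185 with a KRAB match were higher and 47 lower, and 38 of 85 without it were higher and 23 lower. At 2-fold or more these were 44 rises (23.8%) and 14 falls (7.57%) with a KRAB match, and 12 rises (14.1%) and 13 falls (15.3%) without it. A SCAN domain, a pairing module, was matched in 9 of the 131, and 8 of these genes were higher and 0 lower (median 0.82). Of the 8, ZNF274, ZNF213, ZNF446 and ZNF394 averaged under 300 deposited units untreated, so their direction follows from the rule.

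Finger number showed a related order. The predicted proteins held 0 to 31 C2H2 fingers, with a median of 9 (12 with KRAB, 7 without). Genes for proteins with 0 or 1 finger were mostly lower, 6 of 10, with 2 higher and a median log2 change of -0.23. With 2 to 5 fingers 17 of 30 were higher and 10 lower (median 0.42), and with 6 to 10 fingers 29 of 45 were higher and 9 lower (0.49). With 11 to 15 fingers 21 of 28 were higher and 4 lower (1.07), and with 16 to 31 fingers 14 of 18 were higher and 3 lower (0.69). Finger number and the KRAB match go together in this family, and the differences between these groups of genes were not tested. The counts also include genes that entered the set through 1 group alone. Over all genes tested 41.6% were higher and 40.2% lower.

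**Figure D4:**
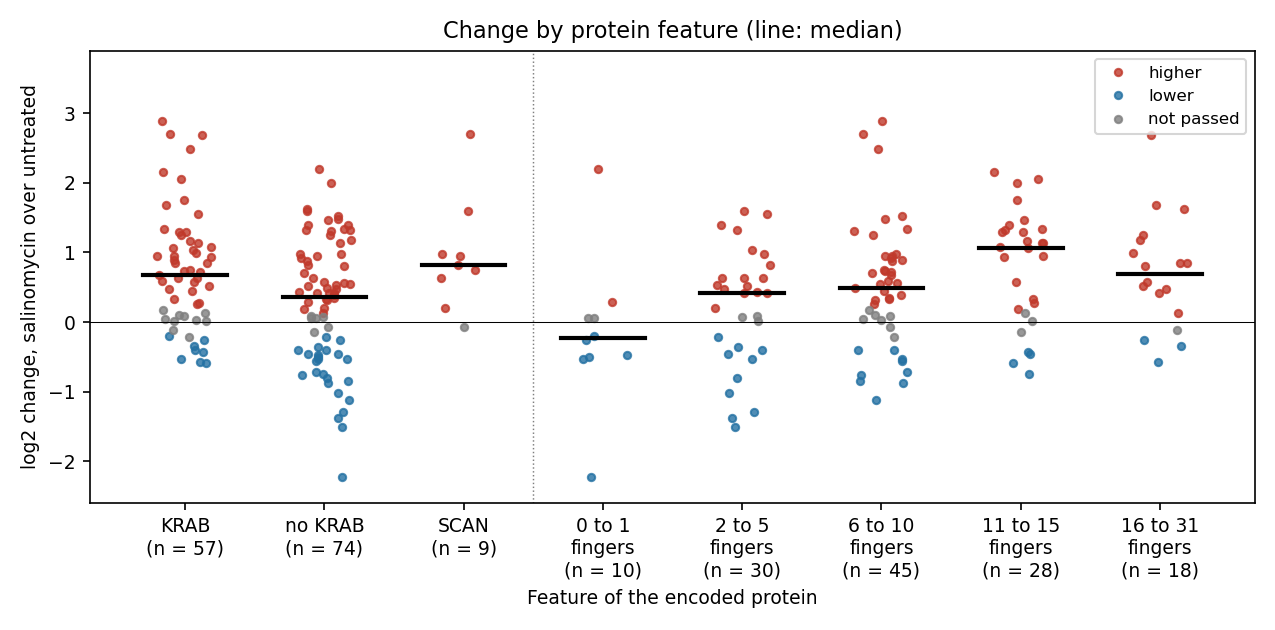
Log2 change (salinomycin over untreated) of each gene (dots) by KRAB match, SCAN match and number of C2H2 fingers in the predicted protein, with the median as a line. Medians are 0.68 with KRAB, 0.37 without, 0.82 with SCAN, and -0.23, 0.42, 0.49, 1.07 and 0.69 from the fewest to the most fingers.

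On chromosome 19, which held 41 of the 131 genes, 28 were higher (68.3%) and 7 lower (17.1%), with a median log2 change of 0.51. On the 20 other chromosomes 55 of 90 were higher (61.1%) and 25 lower (27.8%; median 0.42). Over all genes tested 41.6% were higher and 40.2% lower. The counts for the 131 genes include genes that entered the set through 1 group alone. Of the tested ZNF genes that averaged under 300, 69 of 134 were higher and 29 lower on chromosome 19 (median 0.48), and 51 of 136 were higher and 41 lower elsewhere (median 0.09). Tested genes of other names on chromosome 19, at any level, were also higher more often than lower, 51.5% against 31.4% of 778. Their median was 0.29. The KRAB genes had the same median, 0.68, on chromosome 19 (25 genes) and elsewhere (32 genes).

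Neighbouring ZNF genes were compared in runs, here 3 or more of the 131 genes with gaps of at most 500 kb. The longest run lay at the end of chromosome 19 (57191500 to 58481230, GRCh38) and held ZNF264, ZNF805, ZNF550, ZNF134, ZNF587B, ZNF587, ZNF274, ZNF8, ZNF584 and ZNF446. In it 9 of 10 genes were higher, beside 41.6% of all genes tested, with a median log2 change of 1.14. ZNF805, ZNF550, ZNF587B, ZNF274 and ZNF446 averaged under 300 deposited units untreated, so they entered the set through salinomycin alone. Their direction follows from that. ZNF8 did not pass (0.05 ± 0.076, limma adjusted p = 0.55). The next neighbour of ZNF8, ZNF274, rose by 2.71, so the run was not uniform. Exon sequence shared with other genes was 26.1% in ZNF446, 24.1% in ZNF587B, 22.1% in ZNF8 and 18.6% in ZNF587. The values of these genes are less certain. At the end of chromosome 12 (132918308 to 133107544) all 4 genes were higher, by 0.86 for ZNF605, 1.14 for ZNF26, 0.52 for ZNF84 and 2.90 for ZNF140. Of these, ZNF26 and ZNF140 entered through salinomycin alone, and the runs described next also hold genes that entered through 1 group alone. On chromosome 7 (149126416 to 149867479) 4 of 6 were higher, ZNF862 was just past the threshold with overlapping groups (-0.20, adjusted p = 0.044) and ZNF746 did not pass. Nearer the start of chromosome 19 (8806170 to 9675086) 3 of 6 were higher and the other 3 did not pass. A group of 6 on chromosome 19 (55576770 to 56160893) held 5 genes that were higher and ZNF580, which was lower, next to ZNF581, which rose by 0.51. ZNF580 and ZNF581 overlap on the same strand. Exon bases that overlap a gene on that strand are 15.1% for ZNF580 and 23.4% for ZNF581, so some reads may be shared. Neighbours named here outside the naming rule were chosen after their values were seen.

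**Figure D5:**
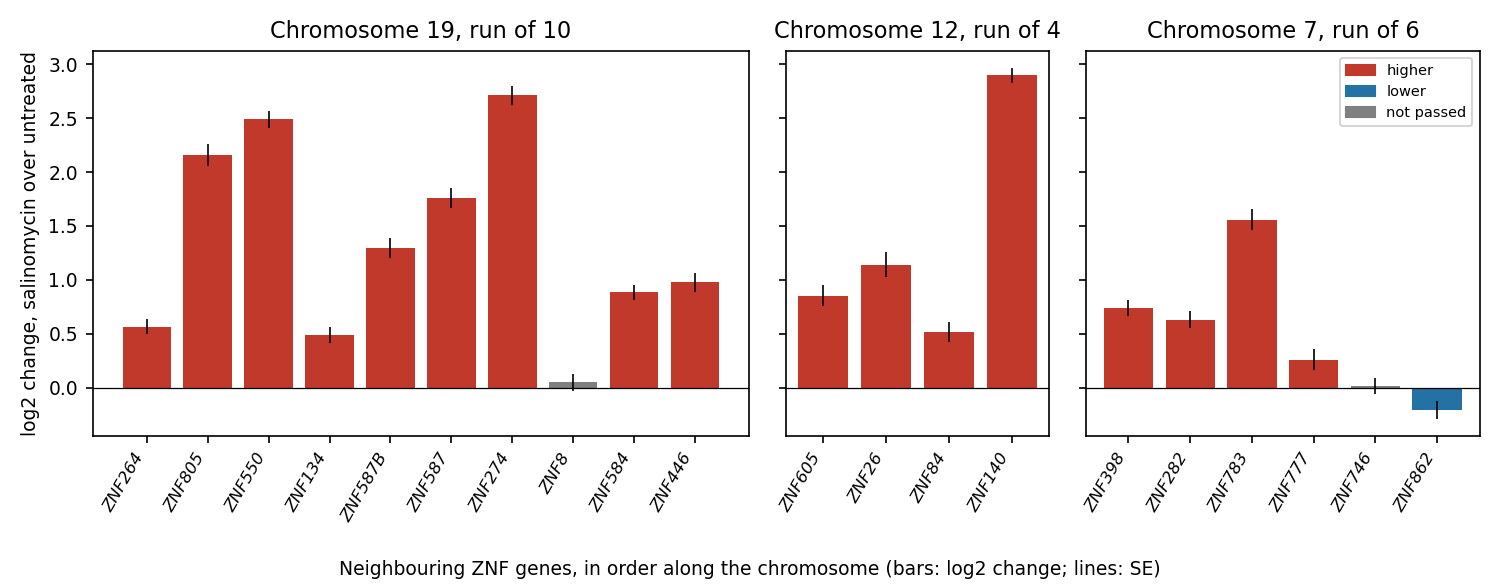
Log2 change with its standard error (salinomycin over untreated, vertical axis) of neighbouring ZNF genes in chromosomal order in runs on chromosomes 19, 12 and 7. The run of 10 on chromosome 19 has 9 higher genes and ZNF8 near 0.05, and the run of 4 on chromosome 12 has 4 higher genes. The run of 6 on chromosome 7 ends in ZNF746 at 0.02 and ZNF862 at -0.20. Each run includes genes that entered the set through salinomycin alone, whose direction follows from that.

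ZNF-named genes with known roles outside DNA binding moved in both directions. Of 8 that belong to the set, 3 were higher (37.5%; 41.6% of all genes) and 5 lower (62.5%; 40.2% of all genes). ZNF598 encodes the ubiquitin ligase that marks collided ribosomes (chromosome 16, 1997654 to 2009823). It had 2054, 2111 and 2169 units with salinomycin, against 445.4, 428.8 and 510.1 untreated (log2 change 2.20 ± 0.069, limma adjusted p = 5.82e-11). ZNF622, a factor in the maturation of the large ribosomal subunit, had 1325, 1404 and 1446 units with salinomycin, against 587.0, 574.5 and 510.1 untreated (1.32 ± 0.068). Both ribosome-linked genes were high in all salinomycin libraries. The RNA-binding ZNF106 rose less, by 0.42 ± 0.09.

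The other RNA-linked genes were lower. ZNF638, which takes part in silencing unintegrated retroviral DNA, had 1640, 1572 and 1530 units with salinomycin, against 2188, 2352 and 2310 untreated (-0.53 ± 0.052). ZNF326, a link between transcription and splicing in the DBIRD complex, had 275.0, 258.8 and 256.3 units with salinomycin, against 375.1, 425.6 and 328.7 untreated (-0.51 ± 0.098). ZNF346, which binds double-stranded RNA, had 312.0, 301.0 and 306.0 units with salinomycin, against 436.7, 444.7 and 389.5 untreated (-0.46 ± 0.078). These 3 genes and ZNF385A showed no overlap between groups. ZNF207, whose product BuGZ helps BUB3 reach kinetochores, had 2165, 1858 and 1819 units with salinomycin, against 2201, 2443 and 2350 untreated. Its salinomycin libraries lay just below the untreated ones, and its change of -0.26 ± 0.07 no longer passed when libraries were scaled only by their size (-0.07, adjusted p = 0.39).

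Among 12 members with a described role in transcription or chromatin, 5 were higher, 6 lower and 1 did not pass. Rises were about as frequent as among all genes tested (41.7% against 41.6%), and 40.2% of all genes were lower. ZNF274, given above, rose most. ZNF335, part of histone H3K4 methyltransferase complexes, had 820.3, 772.6 and 774.5 units with salinomycin, against 348.1, 358.5 and 374.5 untreated (1.13 ± 0.065). ZNF24, a SCAN repressor gene, had 1525, 1437 and 1266 units with salinomycin, against 752.4, 817.1 and 818.4 untreated (0.82 ± 0.073). ZNF644, whose product works with the histone methyltransferases G9a and GLP, had 649.0, 662.9 and 602.7 units with salinomycin, against 368.6, 405.4 and 404.4 untreated (0.70 ± 0.071). The 3 genes were higher in every salinomycin library.

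ZNF532, ZNF592 and ZNF687, whose products form a complex with the chromatin reader ZMYND8, did not move together. ZNF592 had 1627, 1598 and 1553 units with salinomycin, against 1208, 1202 and 1355 untreated (0.35 ± 0.059). ZNF532 had 735.1, 650.7 and 644.0 units with salinomycin, against 1093, 1176 and 1167 untreated (-0.76 ± 0.067). ZNF687 had 599.9, 597.2 and 606.4 units with salinomycin, against 821.6, 747.9 and 820.6 untreated (-0.40 ± 0.062). The first was higher and the other two were lower, each with separate groups. ZNF609 fell by 0.48 ± 0.062. ZNF148, which encodes the factor ZBP-89, had overlapping groups, 485.1, 465.0 and 443.1 units with salinomycin and 405.4, 457.5 and 462.0 untreated. Its change was 0.07 ± 0.076 (adjusted p = 0.38), -0.01 with upper-quartile scaling and 0.26 with library size alone.

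Genes for the proteins that KRAB zinc fingers recruit also moved in both directions. In a list of 24 corepressor genes 6 were higher and 12 lower, beside 41.6% and 40.2% of all genes tested. The list had a median log2 change of -0.17, and scaling by library size alone gave 11 higher and 11 lower. TRIM28, the direct partner of the KRAB box, rose, with 12040, 12400 and 12900 units with salinomycin, against 5744, 4992 and 5605 untreated (1.19 ± 0.059, limma adjusted p = 2.65e-09). SETDB1 had 808.2, 781.9 and 727.5 units with salinomycin, against 664.8, 802.2 and 721.3 untreated, so the groups overlapped. Its change was 0.09 ± 0.076 (adjusted p = 0.31), -0.0005 with upper-quartile scaling and 0.28 with library size alone. The largest falls were those of MTA3 (-1.35 ± 0.062) and CHD3 (-1.27 ± 0.066), subunits of the NuRD deacetylase complex. Of 4 genes of the HUSH silencing complex and its partner MORC2, MORC2 rose by 0.65 and MPHOSPH8 by 0.52, and TASOR fell by 0.61 and PPHLN1 by 0.98. All 4 are outside the naming rule and were named after their values were seen.

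The authors' deposited table scored gene sets named as the targets of 21 of the 131 factors. Of these sets in the authors' deposited table, 4 passed with a positive score, beside 22.9% of 275 such target sets, and 0 passed with a negative score, beside 1.82%. They were the sets of ZNF581, ZNF532, ZNF260 and ZNF318, with normalised enrichment scores in the authors' deposited table of 1.82, 1.61, 1.45 and 1.42. The genes for these factors changed by 0.51, -0.76, -0.15 (not passed) and 0.41 in the present fit. By the p-values of the authors' deposited table, 95 of the 131 genes were higher and 23 lower at an adjusted p under 0.05, with a median log2 change of 0.68. Of the 15107 genes that have an adjusted p in the authors' deposited table, 41.9% were higher and 28.1% lower, with a median of 0.19.

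Together the 131 genes held 0.707, 0.678 and 0.655% of all values in the salinomycin libraries, against 0.409, 0.431 and 0.428% in the untreated libraries. The groups did not overlap, but these sums include 31 genes that entered the set only through salinomycin and 8 only through the untreated group. The rule therefore bears on the difference, and a share for the genes at 300 or more in both groups was not computed. ZNF genes averaging under 300 held 0.231% ± 0.009 with salinomycin and 0.172% ± 0.005 untreated (SD, n = 3 each). Transcripts encoded in mitochondria moved the other way, 0.316% ± 0.032 of values with salinomycin and 3.59% ± 0.192 untreated, and their part in the shares was not tested. Across the 131 genes, Pearson's r of log2 values between libraries was 0.979 to 0.992 within groups and 0.428 to 0.466 between groups, and for all tested genes 0.993 to 0.995 and 0.843 to 0.848. These values describe genes, which are not independent replicates. The median coefficient of variation of a gene was 5.08% among salinomycin and 7.0% among untreated libraries.

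Estimated reads ran from 14935721 to 19641546 in salinomycin libraries and from 13540156 to 16366767 in untreated libraries. Of 5 epithelial marker genes that A549 expresses, 4 were lower and 1 higher, and their summed level was 61070 to 70530 units with salinomycin, against 210300 to 238000 untreated. The summed markers of each other cell type were far below the epithelial sum, but COL1A1 averaged 416.2 units with salinomycin and 667.5 untreated. Leukocyte genes summed to 42.2 to 65.7 units with salinomycin against 197.4 to 227.0 untreated, with 2 of 4 in the table. In untreated libraries that sum was mostly CD14, which fell with salinomycin, and the other gene, CD79A, rose by 1.40 on the log2 scale (adjusted p = 0.000474). Endothelial genes summed to 2.82 to 10.2 units with salinomycin against 9.60 to 15.1 untreated, and fibroblast genes, mostly COL1A1, to 410.7 to 449.0 with salinomycin against 600.1 to 822.7 untreated. The part of these marker changes in the results was not tested. In bulk RNA, fewer cells of a type and less RNA per cell cannot be told apart, and a rise is relative to the other transcripts of the library.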

How the data were processed

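RNA-seq values of 3 salinomycin and 3 untreated libraries were compared. The submitters' processing notes name GRCh38 as the build. Aligner, counter, annotation and strand setting are not given in the sources used here. As deposited, the signal values were whole numbers that had been rescaled to totals of 16270249 to 16382904, with 1 in place of 0. Reads per library were estimated from rounding steps. Per the file headers the table also held the authors' log10 means, log2 fold changes, a linear fold ratio, a test score and p-values. A second deposited table held enrichment scores and p-values.

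After subtracting 1, values were divided by TMM factors (30% and 5% trimming) to give normalised units. The test was limma 3.58.1 (R 4.3.3) with a trend on log2 units, to which a pseudocount of 1 was added. Genes needed 10 or more units in 3 libraries before scaling, and Benjamini-Hochberg adjustment ran over the 13088 that had them. All 131 ZNF genes passed this filter, and 3582 genes were set aside. The fit was tested on simulated data. P-values measure the spread between these 3 libraries per group. Coordinates, exon lengths and predicted proteins are from GENCODE release 29. Fingers were counted as C, 2 to 4 residues, C, 12 residues, H, 3 to 5 residues, H, and KRAB and SCAN domains were matched by short patterns over coding isoforms. The genes and lists were chosen with earlier results of these data known. Named genes were the 10 largest rises and falls whose groups do not overlap, list members, the 3 highest per kilobase and 3 on each side of the limit of 300. From the corepressor and HUSH lists, TRIM28, SETDB1 and the 3 largest changes were named. Alternatives were other scalings, filters and pseudocounts, limma-voom, a replicate block, leaving out each library and limits of 150 and 600.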

Additional observations from a re-analysis of the deposited data

How the results depend on the processing

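Scaling decides where no change lies. The median log2 change of the 131 ZNF genes was 0.67 with library size alone and 0.39 with upper-quartile scaling, against 0.48. Library size alone also gave 4 lower KRAB genes in place of 8 and 11 higher corepressor genes in place of 6. Leaving out 1 library gave 80 to 83 higher and 28 to 33 lower genes, a median of 0.44 to 0.50, and 5 to 9 lower KRAB genes. With a limit of 150 the 229 genes had 135 higher and 57 lower (median 0.42), and with 600 the 51 genes had 39 higher and 9 lower (median 0.58), since more or fewer genes enter. Of 44 named genes tested, 36 kept their call and direction in all 15 settings. Upper-quartile scaling turned ZNF148 to -0.0121, ZNF839 to -0.0001 and SETDB1 to -0.0005, none of which passed. No sign of pairing by replicate number was seen. Same-numbered libraries deviated with correlations of -0.172, -0.013 and -0.033, and the other pairs with -0.154 to 0.194. With 3 libraries per group these correlations cannot exclude pairing. The replicate block gave 82 higher and 32 lower genes. The depth, 3 libraries per group and the unknown strand setting limit small changes and overlapping genes.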
